A study of Homo sapiens with 8 samples.

Results

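The genes described here are those of cholesterol and fatty acid synthesis, with the proteins that regulate them, in LN229-TAZ(4SA) glioblastoma cells with or without thioredoxin reductase 1 and with or without glucose. A list of 35 gene symbols was looked up in the deposited expression table, which has 13730 rows, and 34 of the 35 had a row. The remaining one, ACACA (acetyl-CoA carboxylase alpha), was not analysed here. The 34 were split by role into 6 regulators and sterol carriers, 18 enzymes of the sterol arm and 10 enzymes of the fatty acid arm. The rule that picks them is a list of names and uses no measured value. The list and its arms were, however, chosen with earlier results of these data known. All 34 passed the filter on low values, a mean log2 CPM (read counts scaled to library size, on a log2 scale) of at least 0.

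RNA-seq had been run on 4 groups with 2 libraries each, named a and b without any order. The groups were TrxR1 knockout (KO) cells in glucose-deprived medium, EV control cells in glucose-deprived medium, KO cells in regular medium and EV control cells in regular medium. TrxR1 is cytosolic thioredoxin reductase, encoded by TXNRD1. LN229 is an established human glioblastoma line, and all groups carried the TAZ(4SA) modification named in the labels, a form of the transcriptional coactivator TAZ. Growth medium was DMEM with fetal bovine serum. The labels do not give the number of KO clones, the hours without glucose or whether each library had its own culture. The p-values rest on how far the 2 libraries of a group lay apart, pooled over the 4 groups and moderated over all genes tested. This spread may be technical. Loss of TrxR1 cannot be told apart from anything else that sets the KO line off from the EV line. The question of the study was how TrxR1 loss and lack of glucose act together on tumour cells, and the comparisons below apply it to lipid synthesis.

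Animal cells build cholesterol and fatty acids from cytosolic acetyl-CoA. The 2 routes are switched on by SREBP transcription factors, which are made as precursors in the endoplasmic reticulum membrane. When membrane sterol is low, SCAP escorts the precursor to the Golgi, where proteases release the active factor. When sterol is high, INSIG proteins hold SCAP back. SREBF2 mainly drives cholesterol genes and SREBF1 mainly drives fatty acid genes. Tumour cells of the glioblastoma type are known to depend on this lipid supply, in part through uptake of lipoproteins.

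The promoter sequences of the 4 members that rose most without glucose (STARD4, INSIG1, MSMO1 and HSD17B7) and of the member that fell most in KO cells, ELOVL1, are shown because the results below turn on these genes. Each is the RefSeq window of 300 bases from 250 before to 50 after the start, on GRCh38.p14, written 5′ to 3′ along the gene's strand. The capitals mark letters searched for by script on both strands, so a motif on the other strand appears as its reverse complement. Where capitals run on past 1 motif, neighbouring motifs overlap or touch, as GGGCGG does with itself in INSIG1 and with CCAAT in ELOVL1.
STARD4 (chr5:111512486-111512785, minus strand): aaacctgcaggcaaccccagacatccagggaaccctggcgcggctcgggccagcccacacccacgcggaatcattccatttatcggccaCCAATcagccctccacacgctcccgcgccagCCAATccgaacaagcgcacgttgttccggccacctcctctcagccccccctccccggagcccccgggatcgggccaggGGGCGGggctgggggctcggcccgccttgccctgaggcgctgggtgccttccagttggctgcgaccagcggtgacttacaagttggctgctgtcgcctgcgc
INSIG1 (chr7:155297628-155297927, plus strand): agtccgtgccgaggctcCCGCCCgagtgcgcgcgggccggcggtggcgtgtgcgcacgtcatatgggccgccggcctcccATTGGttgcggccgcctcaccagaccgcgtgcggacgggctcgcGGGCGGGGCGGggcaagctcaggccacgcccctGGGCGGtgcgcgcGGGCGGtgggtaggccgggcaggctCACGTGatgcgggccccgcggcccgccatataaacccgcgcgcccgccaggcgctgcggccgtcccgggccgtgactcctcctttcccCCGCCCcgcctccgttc
MSMO1 (chr4:165327419-165327718, plus strand): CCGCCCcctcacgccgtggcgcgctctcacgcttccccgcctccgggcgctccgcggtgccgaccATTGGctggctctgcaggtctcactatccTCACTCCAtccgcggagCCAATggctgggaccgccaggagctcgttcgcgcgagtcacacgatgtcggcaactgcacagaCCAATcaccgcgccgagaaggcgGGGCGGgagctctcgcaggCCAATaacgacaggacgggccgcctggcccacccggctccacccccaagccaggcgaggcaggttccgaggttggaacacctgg
HSD17B7 (chr1:162790452-162790751, plus strand): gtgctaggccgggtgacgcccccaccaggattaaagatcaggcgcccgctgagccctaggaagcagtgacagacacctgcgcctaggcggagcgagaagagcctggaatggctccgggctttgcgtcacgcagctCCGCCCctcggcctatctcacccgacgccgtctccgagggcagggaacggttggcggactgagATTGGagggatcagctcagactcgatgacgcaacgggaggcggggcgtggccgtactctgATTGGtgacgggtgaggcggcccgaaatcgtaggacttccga
ELOVL1 (chr1:43367962-43368261, minus strand): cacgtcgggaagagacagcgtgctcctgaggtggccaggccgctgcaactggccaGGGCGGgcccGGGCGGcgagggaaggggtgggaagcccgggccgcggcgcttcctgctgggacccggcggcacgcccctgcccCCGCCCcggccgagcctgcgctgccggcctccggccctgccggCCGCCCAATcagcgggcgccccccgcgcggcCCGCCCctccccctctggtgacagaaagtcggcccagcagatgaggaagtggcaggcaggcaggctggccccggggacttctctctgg

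The 5 motifs searched were TCACNCCA (the core of the sterol regulatory element that SREBP binds), CCAAT (the NF-Y box), GGGCGG (the SP1 box), CACGTG (an E-box) and TGATGCAA (a composite element bound by stress bZIP factors). Of the 34 members, 30 had a window, and ACAT2, FASN, FDFT1 and SQLE had none. The first listed window was used for the 8 members with 2 or more. TCACNCCA was present in 3 of 30 windows, those of MSMO1, MVK and SREBF2, against 3.93% of 27305 windows of the same length. CCAAT was present in 21 of 30 (35.7% of all windows) and GGGCGG in 27 of 30 (44.6%). CACGTG was present in 5 of 30 (7.43%), namely ELOVL5, INSIG1, LSS, SC5D and SCAP. TGATGCAA was present in 0 of 30 (0.923%). The 27305 windows were not limited to genes with a row in the deposited table, as the 30 were. The share among genes with a row was not computed, so these numbers do not set the members apart from other expressed genes. A match describes the letters of a window and is no binding site.

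Reads summed over the table were between 70083018 and 107229069 per library, so that 1 read was worth 0.0095 to 0.0143 CPM. With 2 libraries in a group, their number limits the precision. It also makes a lack of overlap between 2 groups a weak sign of a difference. The share of all genes without overlap was not computed. Between those 2 libraries the members differed by a median of 0.08 log2 units in deprived KO cells, 0.06 in deprived EV cells, 0.06 in regular KO cells and 0.03 in regular EV cells. The columns taken as glucose-deprived carry a suffix that the labels do not explain. In them TXNIP, a gene that glucose induces, averaged 8.45 CPM in KO and 10.5 CPM in EV cells, against 79.6 and 86.3 CPM in regular-medium KO and EV cells. TXNRD1 mRNA averaged 361 and 501 CPM in deprived KO and EV cells and 247 and 262 CPM in regular KO and EV cells. A deletion that leaves the mRNA in place would not be seen in these values, so they do not test the knockout label. Of 11 markers listed for a glioblastoma line, 10 had a row and CHI3L1 had none. Their summed level was 5120 to 5558 CPM in all libraries, of which VIM gave the largest part (group means of 2958 to 3673 CPM). Single markers moved with the medium. Of the 9 past the filter, 3 had a positive and 6 a negative log2 change without glucose in KO cells, and likewise in EV cells. NES averaged 436 and 386 CPM in deprived KO and EV cells, against 853 and 788 CPM in regular KO and EV cells. OLIG2 went the other way, at 16.1 and 14.7 CPM against 6.44 and 6.20 CPM. Markers also differed between KO and EV cells. In deprived medium 2 of the 9 were called higher and 3 lower in KO cells, against 9.0% and 10.6% of all genes. In regular medium 1 was called higher and 2 lower, against 3.9% and 3.4%. SOX2 averaged 38.7 CPM in regular KO and 55.1 CPM in regular EV cells, and EGFR 136 and 111 CPM. The part of these differences in the results below was not tested. Of 9 markers of leukocytes, endothelium, neurons, oligodendrocytes and epithelium, PTPRC, AIF1, PECAM1, CDH5, MBP and EPCAM had no row. The other 3 (CD68, SYT1 and RBFOX3) summed to 93.0 to 98.3 CPM in deprived KO, 101.1 to 105.4 in deprived EV, 40.8 to 41.2 in regular KO and 40.3 to 43.1 in regular EV cells. This sum moved with the medium, and its part in the results below was not tested.

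Per kilobase of exon, the 5 most abundant mRNAs were all of the fatty acid arm. The length used is that of all annotated exon bases of a gene and not of 1 transcript, so levels per kilobase depend on the annotation. FASN, the fatty acid synthase, had the highest level at 90.7 CPM per kb over the 4 group means, followed by ELOVL5 at 54.7, ACLY at 49.3, ELOVL1 at 45.0, SCD at 35.0 and FDPS at 33.3. FDPS, which makes farnesyl diphosphate, was the most abundant of the sterol arm. At the low end stood SCD5 at 1.97 CPM per kb, LSS at 1.13 and TM7SF2 at 1.13. Levels of LSS and TM7SF2 lie too close to be ordered.

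**Figure D1:**
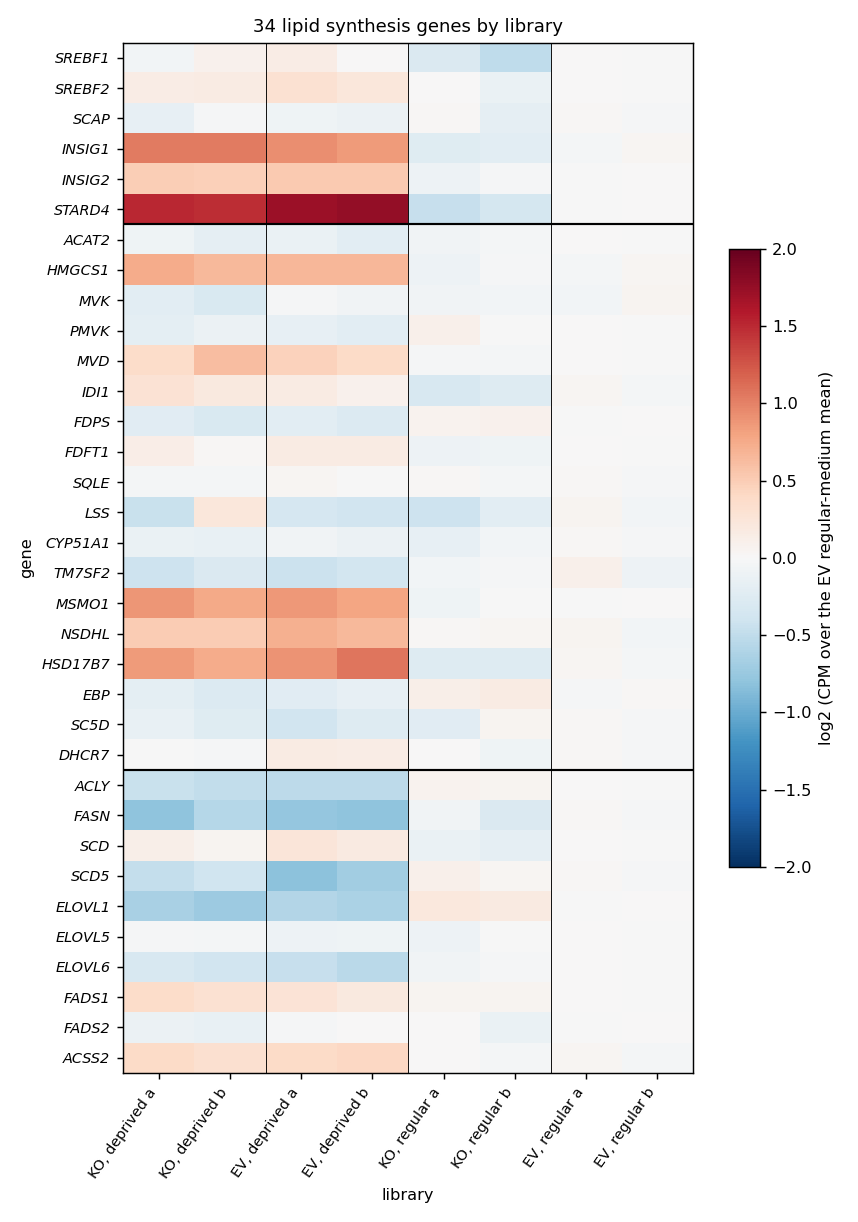
Level of each of the 34 genes (rows, by role) in each of the 8 libraries (columns), as log2 of CPM over the mean of the 2 EV regular-medium libraries, with red above and blue below that mean and the scale running from -2 to 2. The deprived libraries stand apart from the regular ones in both cell types, with STARD4, INSIG1 and HSD17B7 the reddest rows and ELOVL1, FASN and SCD5 the bluest.

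Without glucose the sterol and fatty acid genes moved in both directions, and 22 of the 34 were called the same way in KO and EV cells. STARD4 and the INSIG genes rose, sterol enzymes such as HMGCS1, MSMO1 and HSD17B7 rose while FDPS and EBP fell, and fatty acid enzymes such as FASN, ACLY and ELOVL1 fell. A gene was called where limma's adjusted p over all 13057 genes tested was under 0.05. For glucose-deprived against regular medium in KO cells, 15 of 34 members were called higher and 10 lower. Of all genes tested in this comparison, 36.5% were called higher and 36.8% lower. In EV cells 14 of 34 members were called higher and 12 lower, against 37.5% and 38.7% of all genes. The members' shares therefore stand near those of all genes, and what follows describes which members moved. In bulk RNA, a change in CPM is a change in the share of the mRNA pool, and fewer cells of a state cannot be told apart from less RNA per cell.

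Of the 6 regulators, 5 were called higher and 0 lower in KO cells without glucose, and 4 were called higher and 0 lower in EV cells. At an unadjusted p under 0.05, limma also gave 0 regulators lower in either. Their median log2 fold change was 0.48 in KO and 0.39 in EV cells. In the sterol arm 7 were called higher and 5 lower of 18 in KO cells (median -0.0026), and 7 higher and 6 lower in EV cells (median -0.02). In the fatty acid arm 3 were called higher and 5 lower of 10 in KO cells (median -0.18), and 3 higher and 6 lower in EV cells (median -0.30). The median over all genes tested was -0.0015 in KO and -0.01 in EV cells. Set against the mean of the EV regular libraries, the median fatty acid gene stood at -0.22 and -0.26 in the deprived KO libraries and at -0.28 and -0.31 in the deprived EV libraries. It stood at 0.0037 and -0.02 in the regular KO libraries. The median sterol gene lay between -0.07 and 0.02 in all 8 libraries.

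**Figure D2:**
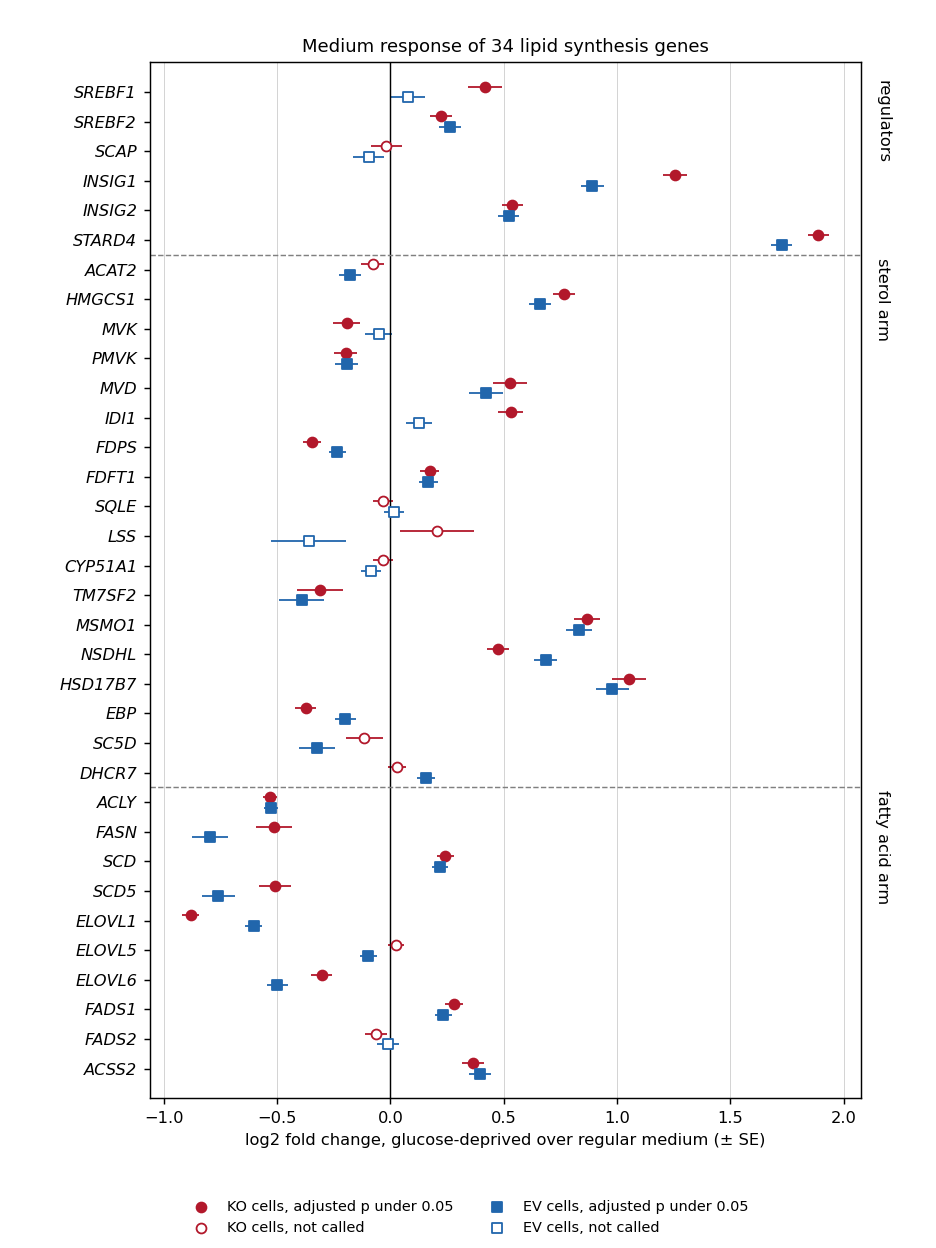
Log2 fold change of each gene, glucose-deprived over regular medium, in KO cells (red circles) and EV cells (blue squares), with limma's standard error as bars, and filled symbols where the adjusted p was under 0.05. STARD4 lies farthest to the right at 1.89 in KO and 1.73 in EV cells, and ELOVL1 in KO cells farthest to the left at -0.88.

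STARD4, a carrier protein that moves cholesterol between membranes, rose most of the 34. It had 75.3 and 73.7 CPM in deprived KO cells, 86.4 and 89.3 CPM in deprived EV cells, 19.4 and 20.9 CPM in regular KO cells and 26.4 and 26.7 CPM in regular EV cells. Every deprived library was above every regular one, and the fold was 3.70 in KO and 3.31 in EV cells, with log2 changes of 1.89 ± 0.05 (adjusted p = 1.8e-10) and 1.73 ± 0.05 (adjusted p = 3.2e-10). The antisense gene STARD4-AS1 shares 2.2% of the STARD4 exon bases, and the library preparation does not mark strand. STARD4-AS1 averaged 9.31 and 12.3 CPM in deprived KO and EV cells and 8.29 and 12.6 CPM in regular KO and EV cells, so its own medium difference was small, at 0.17 in KO and -0.03 in EV cells on the log2 scale.

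INSIG1, the anchor that retains SCAP and that is itself a classical SREBP target, also rose. It had 28.0 and 27.9 CPM in deprived KO cells, 25.9 and 24.7 CPM in deprived EV cells, 11.6 and 11.8 CPM in regular KO cells and 13.3 and 14.0 CPM in regular EV cells. The groups did not overlap between media, and the log2 change was 1.26 ± 0.05 (adjusted p = 7.5e-09) in KO and 0.89 ± 0.05 (adjusted p = 7.7e-08) in EV cells. INSIG2, its close relative with the same anchoring role, had 28.8 and 28.4 CPM in deprived KO cells, 29.5 and 29.5 CPM in deprived EV cells, 19.2 and 20.2 CPM in regular KO cells and 20.5 and 20.6 CPM in regular EV cells. Its change was smaller, at 0.54 ± 0.05 (adjusted p = 1.7e-06) in KO and 0.52 ± 0.05 (adjusted p = 1.9e-06) in EV cells.

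The factors themselves are encoded by SREBF2 and SREBF1. SREBF2, the factor of the cholesterol genes, had 86.8 and 87.0 CPM in deprived KO cells, 96.2 and 90.8 CPM in deprived EV cells, 78.1 and 70.8 CPM in regular KO cells and 78.5 and 77.5 CPM in regular EV cells. It was higher without glucose in both cell types, by 0.22 ± 0.05 (adjusted p = 0.0018) in KO and 0.26 ± 0.05 (adjusted p = 6.0e-04) in EV cells. SREBF1, the factor of the fatty acid genes, had 32.6 and 35.9 CPM in deprived KO cells, 37.5 and 34.2 CPM in deprived EV cells, 27.6 and 23.8 CPM in regular KO cells and 34.0 and 33.7 CPM in regular EV cells. It was called higher in KO cells, by 0.42 ± 0.08 (adjusted p = 4.8e-04). In EV cells its change was 0.08 ± 0.08 (adjusted p = 0.36), not called, although both deprived libraries lay above both regular ones. SREBF1 shares 6.9% of its exon bases with RAI1 on the other strand, and without strand the reads there cannot be told apart. RAI1 averaged 94.7 and 89.6 CPM in deprived KO and EV cells and 140 and 155 CPM in regular KO and EV cells. SCAP, the escort protein, had 79.6 and 88.3 CPM in deprived KO cells, 84.9 and 82.7 CPM in deprived EV cells, 91.5 and 78.8 CPM in regular KO cells and 91.2 and 88.1 CPM in regular EV cells. Its change was -0.02 ± 0.07 (adjusted p = 0.81) in KO and -0.10 ± 0.07 (adjusted p = 0.21) in EV cells, and neither was called.

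In the sterol arm, the following grouping by reaction order was made after the values had been seen. The mevalonate route, which turns acetyl-CoA into farnesyl diphosphate, was split. HMGCS1, which makes HMG-CoA at the head of the route, had 56.1 and 52.6 CPM in deprived KO cells, 52.7 and 52.8 CPM in deprived EV cells, 31.1 and 32.7 CPM in regular KO cells and 32.5 and 34.2 CPM in regular EV cells. It rose by 0.77 ± 0.05 (adjusted p = 1.7e-07) in KO and 0.66 ± 0.05 (adjusted p = 4.8e-07) in EV cells, with no overlap between media. HMGCS1 shares 15.0% of its exon bases with AC114947.2, an antisense gene with no row. IDI1, the isomerase that makes the second isoprene building block, had 26.1 and 24.5 CPM in deprived KO cells, 23.9 and 22.6 CPM in deprived EV cells, 17.1 and 17.9 CPM in regular KO cells and 21.8 and 20.8 CPM in regular EV cells. It rose by 0.53 ± 0.06 (adjusted p = 9.0e-06) in KO cells, and its change in EV cells was 0.13 ± 0.06 (adjusted p = 0.061), not called. MVD, the decarboxylase before IDI1, rose by 0.53 ± 0.08 (adjusted p = 8.7e-05) in KO and 0.42 ± 0.08 (adjusted p = 4.3e-04) in EV cells.

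FDPS at the end of the mevalonate route went the other way. It had 113 and 107 CPM in deprived KO cells, 115 and 109.9 CPM in deprived EV cells, 139 and 141 CPM in regular KO cells and 131 and 133 CPM in regular EV cells. It fell, with log2 changes of -0.35 ± 0.04 (adjusted p = 1.4e-05) in KO and -0.23 ± 0.04 (adjusted p = 2.4e-04) in EV cells, and the deprived libraries were all below the regular ones. FDPS shares 18.6% of its exon bases with RUSC1-AS1 on the other strand, a gene whose level was too low to be tested, and without strand the reads there cannot be told apart. PMVK, the phosphomevalonate kinase, fell too, with log2 changes of -0.20 ± 0.05 (adjusted p = 0.0044) in KO and -0.19 ± 0.05 (adjusted p = 0.0046) in EV cells. MVK, the mevalonate kinase, had 13.0 and 12.2 CPM in deprived KO cells, 14.7 and 14.3 CPM in deprived EV cells, 14.4 and 14.5 CPM in regular KO cells and 14.5 and 15.5 CPM in regular EV cells. It was called lower in KO cells only, at -0.19 ± 0.06 (adjusted p = 0.013), against -0.05 ± 0.06 (adjusted p = 0.45) in EV cells, and the difference between these responses was not called (-0.14 ± 0.08, adjusted p = 0.33). ACAT2, the cytosolic acetoacetyl-CoA thiolase, was called lower in EV cells at -0.18 ± 0.05 (adjusted p = 0.0074), with -0.08 ± 0.05 (adjusted p = 0.17) in KO cells. It shares 26.5% of its exon bases with SOD2, 33.9% with SOD2-OT1 and 9.2% with TCP1 on the other strand, so its count is uncertain. The ACAT2 call was lost without deprived EV library b or regular EV library a (adjusted p = 0.051 to 0.074), and the MVK call without deprived KO library b (0.08). Without glucose SOD2 was called higher, at 0.30 in KO and 0.27 in EV cells, and TCP1 lower, at -0.12 in KO and -0.45 in EV cells.

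Past farnesyl diphosphate, the 3 enzymes that remove the methyl groups at the fourth carbon of the sterol ring (MSMO1, NSDHL and HSD17B7) were all called higher in both cell types. MSMO1, the oxidase of this step, had 30.1 and 27.8 CPM in deprived KO cells, 30.0 and 28.5 CPM in deprived EV cells, 15.5 and 16.2 CPM in regular KO cells and 16.4 and 16.4 CPM in regular EV cells. Its log2 change was 0.87 ± 0.06 (adjusted p = 2.0e-07) in KO and 0.83 ± 0.06 (adjusted p = 2.4e-07) in EV cells. NSDHL, the dehydrogenase that follows, had 30.9 and 31.0 CPM in deprived KO cells, 35.9 and 34.3 CPM in deprived EV cells, 22.2 and 22.4 CPM in regular KO cells and 22.6 and 21.0 CPM in regular EV cells, with changes of 0.47 ± 0.05 (adjusted p = 8.2e-06) in KO and 0.68 ± 0.05 (adjusted p = 4.4e-07) in EV cells. HSD17B7, the ketosteroid reductase that closes the step, had 15.0 and 13.8 CPM in deprived KO cells, 15.4 and 17.3 CPM in deprived EV cells, 6.89 and 6.95 CPM in regular KO cells and 8.49 and 8.08 CPM in regular EV cells. Its changes were 1.05 ± 0.07 (adjusted p = 3.6e-07) in KO and 0.98 ± 0.07 (adjusted p = 5.5e-07) in EV cells. None of the 3 genes overlapped between media. A near-identical copy, HSD17B7P2, is in the table at a mean of 1.27 CPM, and reads of the 2 copies could have been split between them.

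Of the enzymes around this step, FDFT1 was called higher in both cell types, SQLE, CYP51A1 and LSS were not called, and TM7SF2 fell. FDFT1, squalene synthase, had 69.8 and 64.8 CPM in deprived KO cells, 71.6 and 71.1 CPM in deprived EV cells, 59.3 and 60.0 CPM in regular KO cells and 63.7 and 63.5 CPM in regular EV cells. It was called higher by 0.17 ± 0.04 (adjusted p = 0.0034) in KO and 0.17 ± 0.04 (adjusted p = 0.0041) in EV cells. SQLE, the squalene epoxidase and a rate-controlling enzyme, was not called in any of the 5 comparisons and lay between 34.3 and 36.4 CPM over all 8 libraries. CYP51A1, the lanosterol demethylase, had 74.7 and 74.0 CPM in deprived KO cells, 78.4 and 75.8 CPM in deprived EV cells, 73.1 and 79.1 CPM in regular KO cells and 83.2 and 80.5 CPM in regular EV cells, and was not called in any comparison either. In the annotation 79.4% of its exon bases also belong to AC000120.2, a protein-coding gene on the same strand with no row in the table, so its count is uncertain. LSS, lanosterol synthase, had 6.82 and 10.8 CPM in deprived KO cells, 7.31 and 7.09 CPM in deprived EV cells, 6.95 and 7.96 CPM in regular KO cells and 9.55 and 8.95 CPM in regular EV cells. Its deprived KO libraries differed from each other by 0.66 log2 units, the largest gap within a group among the 34. TM7SF2, a sterol reductase, fell in both cell types, at -0.31 ± 0.10 (adjusted p = 0.017) in KO and -0.39 ± 0.10 (adjusted p = 0.0045) in EV cells, at the lowest level in the set. The call in KO cells was lost without deprived library a or regular library b (adjusted p = 0.066 to 0.089), and that in EV cells without regular library a (0.057).

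Of the last steps to cholesterol, EBP, the sterol isomerase, had 37.7 and 35.6 CPM in deprived KO cells, 36.8 and 38.4 CPM in deprived EV cells, 46.7 and 48.1 CPM in regular KO cells and 42.6 and 43.7 CPM in regular EV cells. It fell, with log2 changes of -0.37 ± 0.05 (adjusted p = 2.7e-05) in KO and -0.20 ± 0.05 (adjusted p = 0.0023) in EV cells. SC5D, the next desaturase, was called lower in EV cells at -0.32 ± 0.08 (adjusted p = 0.0036), with -0.11 ± 0.08 (adjusted p = 0.22) in KO cells. DHCR7, the reductase that makes cholesterol from 7-dehydrocholesterol, had 62.0 and 61.1 CPM in deprived KO cells, 69.4 and 68.9 CPM in deprived EV cells, 62.2 and 58.6 CPM in regular KO cells and 63.0 and 61.1 CPM in regular EV cells. It was called higher in EV cells at 0.16 ± 0.04 (adjusted p = 0.0048), and its change in KO cells was 0.03 ± 0.04 (adjusted p = 0.55). For SC5D the interaction of cell type and medium was 0.21 ± 0.11 (adjusted p = 0.29), and for DHCR7 it was -0.13 ± 0.06 (adjusted p = 0.2), neither called. The DHCR7 call in EV cells was lost without EV regular library b (adjusted p = 0.055).

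In the fatty acid arm, the enzymes that make and lengthen saturated chains fell without glucose. FASN had 628 and 742 CPM in deprived KO cells, 641 and 627 CPM in deprived EV cells, 1053 and 900.2 CPM in regular KO cells and 1118 and 1083 CPM in regular EV cells. The deprived libraries were all below the regular ones, with log2 changes of -0.51 ± 0.08 (adjusted p = 1.6e-04) in KO and -0.80 ± 0.08 (adjusted p = 5.0e-06) in EV cells. ACLY, which splits citrate into the acetyl-CoA that both arms use, had 217 and 212 CPM in deprived KO cells, 206 and 207 CPM in deprived EV cells, 312 and 308 CPM in regular KO cells and 298 and 297 CPM in regular EV cells. It fell to nearly the same degree in both cell types, with -0.53 ± 0.03 (adjusted p = 8.6e-08) in KO and -0.53 ± 0.03 (adjusted p = 8.3e-08) in EV cells. ACSS2, which makes acetyl-CoA from acetate, went the other way. It had 27.3 and 26.2 CPM in deprived KO cells, 27.4 and 27.9 CPM in deprived EV cells, 21.1 and 20.4 CPM in regular KO cells and 21.5 and 20.5 CPM in regular EV cells, a rise of 0.37 ± 0.05 (adjusted p = 5.5e-05) in KO and 0.40 ± 0.05 (adjusted p = 2.7e-05) in EV cells.

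ELOVL1, the elongase of very long saturated and monounsaturated chains, fell most of the 34 in KO cells. It had 84.1 and 79.9 CPM in deprived KO cells, 87.7 and 85.2 CPM in deprived EV cells, 153 and 149.6 CPM in regular KO cells and 131 and 132 CPM in regular EV cells. Its log2 change was -0.88 ± 0.04 (adjusted p = 9.6e-09) in KO and -0.60 ± 0.04 (adjusted p = 1.3e-07) in EV cells, and the media did not overlap. ELOVL6, which lengthens palmitate to stearate, had 29.7 and 28.3 CPM in deprived KO cells, 26.8 and 25.5 CPM in deprived EV cells, 35.2 and 36.4 CPM in regular KO cells and 37.0 and 36.9 CPM in regular EV cells. It fell less in KO cells, at -0.30 ± 0.05 (adjusted p = 1.6e-04), than in EV cells, at -0.50 ± 0.05 (adjusted p = 3.2e-06), but this difference was not called (0.20 ± 0.07, adjusted p = 0.11).

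The stearoyl-CoA desaturases, which make monounsaturated fatty acids, moved in opposite directions. SCD had 197 and 189.5 CPM in deprived KO cells, 216 and 207 CPM in deprived EV cells, 166 and 161 CPM in regular KO cells and 182 and 182 CPM in regular EV cells. It rose by 0.24 ± 0.04 (adjusted p = 1.3e-04) in KO and 0.22 ± 0.04 (adjusted p = 2.6e-04) in EV cells. SCD5, the smaller paralog, had 7.14 and 7.59 CPM in deprived KO cells, 5.63 and 6.15 CPM in deprived EV cells, 10.7 and 10.3 CPM in regular KO cells and 10.1 and 9.87 CPM in regular EV cells. It fell, with log2 changes of -0.51 ± 0.07 (adjusted p = 7.7e-05) in KO and -0.76 ± 0.07 (adjusted p = 3.3e-06) in EV cells. Per kilobase, the SCD level was 22.1 and 20.0 times that of SCD5 in deprived KO cells and 30.7 and 26.9 times in deprived EV cells, against 12.4 and 12.6 times in regular KO and 14.4 and 14.8 times in regular EV cells. The ratio was thus higher in every deprived library than in every regular one, and within each medium lower in both KO libraries than in both EV libraries. INSIG1 over INSIG2 was shifted the same way between media, at 1.06 and 1.06 in deprived KO and 0.952 and 0.908 in deprived EV cells, against 0.652 and 0.633 in regular KO and 0.705 and 0.735 in regular EV cells. A ratio of this kind shows unequal change of the pair.

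The enzymes of polyunsaturated fatty acids had log2 changes within 0.3 of 0. FADS1, the last desaturase of the route, had 189.9 and 182 CPM in deprived KO cells, 179 and 169 CPM in deprived EV cells, 153 and 153 CPM in regular KO cells and 148 and 147 CPM in regular EV cells. It rose by 0.28 ± 0.04 (adjusted p = 5.5e-05) in KO and 0.23 ± 0.04 (adjusted p = 2.1e-04) in EV cells. FADS2, the first desaturase and the neighbour of FADS1 on chromosome 11, lay between 40.9 and 45.5 CPM over all 8 libraries and was called in none of the comparisons. FADS1 shares 4.8% of its exon bases with FADS2 on the other strand. ELOVL5, the elongase between the 2 desaturases, was called lower in EV cells by a small margin, at -0.10 ± 0.04 (adjusted p = 0.029), with 0.02 ± 0.04 (adjusted p = 0.56) in KO cells. This call was lost when any 1 of the 4 EV libraries was left out and with no variance trend (adjusted p = 0.07 to 0.17).

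**Figure D3:**
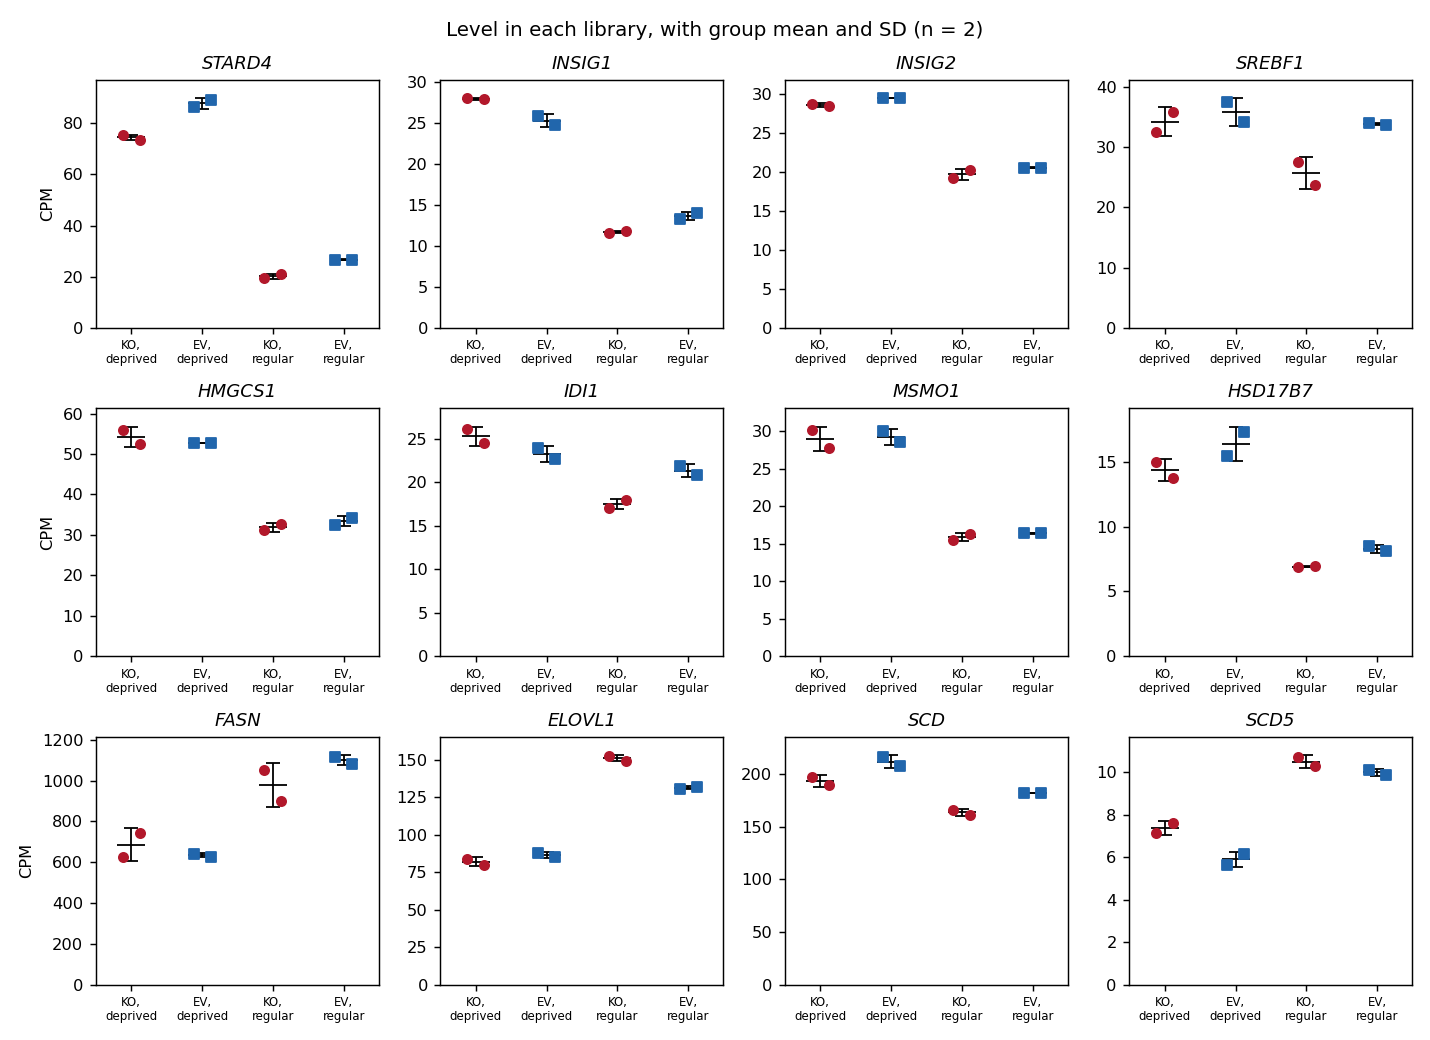
CPM of 12 of the genes in each library (red circles KO, blue squares EV), with the group mean as a line and the SD of n = 2 as bars, and the axis of each panel starting at 0. STARD4, INSIG1, INSIG2, HMGCS1, MSMO1 and HSD17B7 are higher in all 4 deprived libraries than in all 4 regular ones, FASN, ELOVL1 and SCD5 are lower in all 4, and SREBF1 is lowest in the regular KO libraries.

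The responses of KO and EV cells rest on different libraries and can be set side by side. The log2 changes had the same sign in 31 of 34 members (91.2%), against 89.2% of all genes tested. Of the 34, 22 were called the same way in both cell types, 13 higher and 9 lower, and 0 were called in opposite directions. Across the 34 genes, Pearson's r was 0.947 and Spearman's rho 0.925, as a description, since genes are not replicates. Over all genes the r was 0.931.

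Most of these genes were not called between KO and EV cells, and the log2 differences lay between -0.40 and 0.32. For KO against EV cells in glucose-deprived medium, 2 of 34 members were called higher (5.9%) and 5 lower (14.7%). Of all genes tested, 9.04% were called higher and 10.6% lower in this comparison. In regular medium 1 of 34 was called higher (2.9%) and 5 lower (14.7%), against 3.87% and 3.38% of all genes. The share called lower was thus above that of all genes there. The log2 difference was negative in 26 of 34 members in regular medium, against 6692 of 13057 genes tested. In deprived medium it was negative in 18 of 34, against 6752 of 13057. Neither was tested for the members as a set. By role, 0 regulators were called higher and 1 lower in deprived medium, and 0 higher and 3 lower in regular medium. At an unadjusted p under 0.05, limma gave 1 regulator higher in deprived medium (INSIG1) and 0 in regular medium. The sterol arm had 0 higher and 3 lower in deprived medium, and 0 higher and 1 lower in regular medium, with 0 and 1 (EBP) higher at an unadjusted p under 0.05. The fatty acid arm had 2 higher and 1 lower in deprived medium, and 1 higher and 1 lower in regular medium. The median log2 difference of the regulators was -0.05 in deprived and -0.15 in regular medium, that of the sterol arm -0.02 and -0.05, and that of the fatty acid arm 0.06 and -0.03. The median over all genes was -0.0057 and -0.0033.

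**Figure D4:**
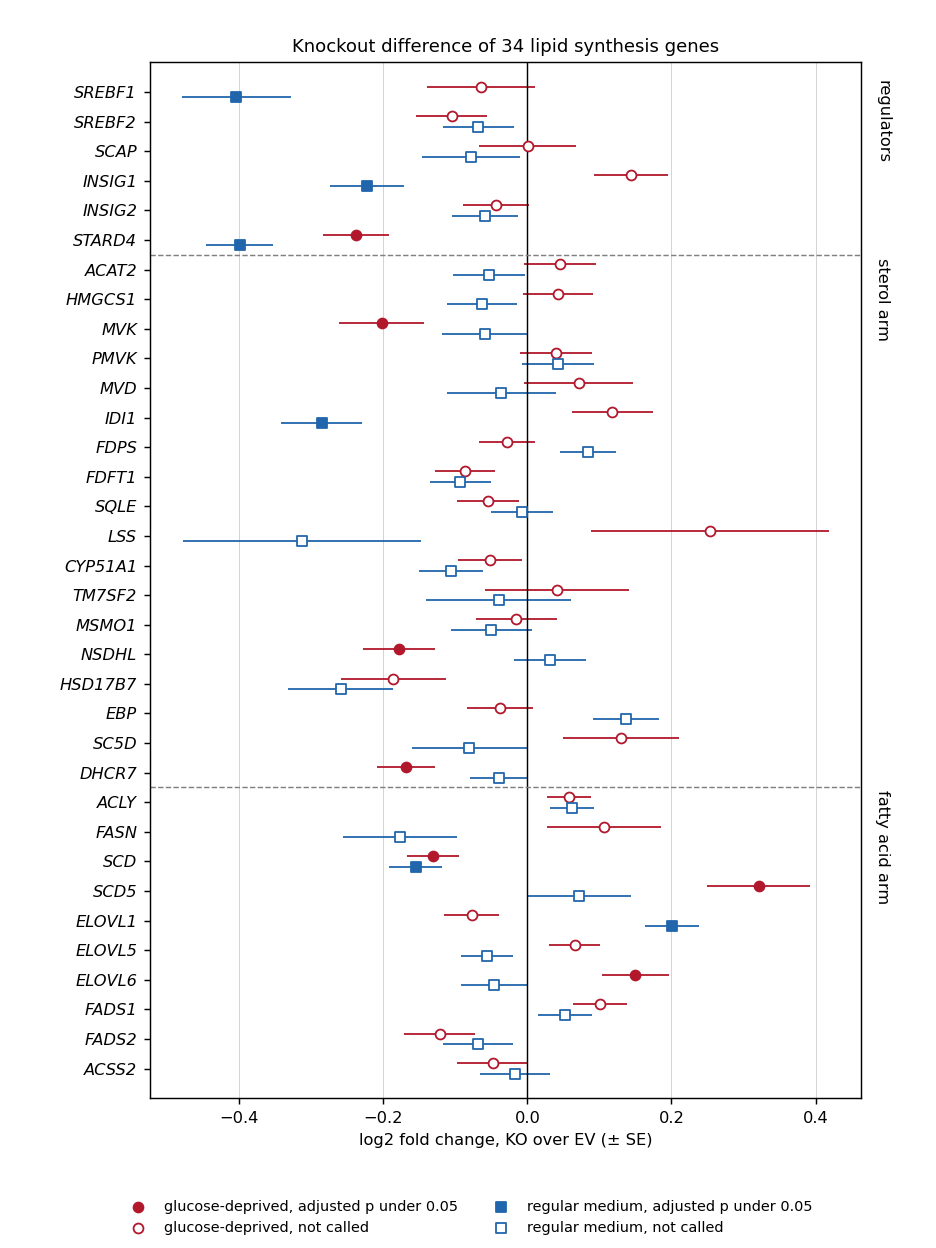
Log2 fold change of each gene, KO over EV, in glucose-deprived medium (red circles) and regular medium (blue squares), with limma's standard error as bars, and filled symbols where the adjusted p was under 0.05. Most symbols lie within 0.2 of 0, with SREBF1 and STARD4 in regular medium at -0.40 and -0.40 and SCD5 in deprived medium at 0.32.

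STARD4 was lower in KO cells in both media, with log2 differences of -0.24 ± 0.05 (adjusted p = 0.0064) in deprived and -0.40 ± 0.05 (adjusted p = 7.4e-04) in regular medium, and the KO and EV libraries given above did not overlap in either. STARD4-AS1 was called lower in KO cells as well, at -0.40 ± 0.06 (adjusted p = 0.0012) in deprived and -0.60 ± 0.06 (adjusted p = 2.1e-04) in regular medium. Without strand, a part of the reads of one cannot be told apart from those of the other over the bases they share. In deprived medium the STARD4 call was lost without EV library b (adjusted p = 0.072). In regular medium it held under all 15 alternatives tried, the only KO call among the 34 that did.

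The other regulators that fell in KO cells did so in regular medium. SREBF1 had 27.6 and 23.8 CPM in KO cells against 34.0 and 33.7 CPM in EV cells there, a log2 difference of -0.40 ± 0.08 (adjusted p = 0.012). In deprived medium its difference was -0.06 ± 0.08 (adjusted p = 0.59) and the KO and EV libraries overlapped. RAI1, which shares exon bases with SREBF1, differed by -0.15 ± 0.07 (adjusted p = 0.22) in regular and 0.08 ± 0.07 (adjusted p = 0.48) in deprived medium, not called. The interaction for SREBF1 was 0.34 ± 0.11 (adjusted p = 0.095), not called. The regular-medium call was lost under 3 of 15 alternatives, with adjusted p = 0.11 without EV regular library a, 0.085 without b and 0.063 with no variance trend. INSIG1 was lower in KO cells in regular medium, at -0.22 ± 0.05 (adjusted p = 0.028), while in deprived medium its difference was 0.14 ± 0.05 (adjusted p = 0.076). The INSIG1 call in regular medium was lost under 7 of 15 alternatives, with adjusted p = 0.051 to 0.23. SREBF2, SCAP and INSIG2 were not called in either medium. The SREBF2 difference was -0.10 ± 0.05 (adjusted p = 0.16) in deprived and -0.07 ± 0.05 (adjusted p = 0.43) in regular medium.

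In the sterol arm, DHCR7, NSDHL and MVK were called lower in KO cells without glucose. The differences were -0.17 ± 0.04 (adjusted p = 0.017) for DHCR7, -0.18 ± 0.05 (adjusted p = 0.032) for NSDHL and -0.20 ± 0.06 (adjusted p = 0.038) for MVK. In none of the 3 did the KO and EV libraries overlap, which also held for uncalled members such as SQLE and CYP51A1. MMAB, which lies beside MVK and shares 4.7% of the MVK exon bases on the other strand, was called lower in KO cells too, at -0.38 in deprived and -0.27 in regular medium. Each of the 3 calls was lost under at least 3 of 15 alternatives, with adjusted p between 0.054 and 0.2. In regular medium IDI1 was called lower, at -0.29 ± 0.06 (adjusted p = 0.015), and HSD17B7 was next at -0.26 ± 0.07 (adjusted p = 0.061), not called. The IDI1 call was lost without KO regular library a or either EV regular library (adjusted p = 0.071 to 0.17).

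In the fatty acid arm, SCD was lower in KO cells in both media, with -0.13 ± 0.04 (adjusted p = 0.032) in deprived and -0.16 ± 0.04 (adjusted p = 0.03) in regular medium. SCD5 was higher in KO cells in deprived medium, at 0.32 ± 0.07 (adjusted p = 0.012), with 0.07 ± 0.07 (adjusted p = 0.58) in regular medium, and ELOVL6 was higher in deprived medium at 0.15 ± 0.05 (adjusted p = 0.048). ELOVL1 was higher in KO cells in regular medium at 0.20 ± 0.04 (adjusted p = 0.012), where the KO libraries had 153 and 149.6 CPM and the EV libraries 131 and 132 CPM. FASN differed by 0.11 ± 0.08 (adjusted p = 0.38) in deprived and -0.18 ± 0.08 (adjusted p = 0.21) in regular medium and was not called. Both SCD calls were lost under 7 of 15 alternatives (adjusted p = 0.052 to 0.23), the ELOVL6 call under 8 (0.057 to 0.28) and the ELOVL1 call under 4 (0.051 to 0.15). The SCD5 call was lost without deprived KO library b (0.068) or deprived EV library a (0.10).

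The KO differences in the 2 media rest on different libraries, and they had the same sign in 18 of 34 members (52.9%), against 57.1% of all genes. Only STARD4 and SCD were called in both, each lower in KO cells. Across the 34 genes Pearson's r was 0.070 and Spearman's rho 0.081, against an r of 0.218 over all genes.

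Whether the medium response differed between KO and EV cells was tested by the interaction, the KO minus EV difference in deprived medium less that in regular medium. It was called for 3 of 34 members, 2 higher (INSIG1 and IDI1) and 1 lower (ELOVL1), against 2.31% of all genes called higher and 2.01% called lower. INSIG1 had an interaction of 0.37 ± 0.07 (adjusted p = 0.022) and IDI1 of 0.40 ± 0.08 (adjusted p = 0.021), so both rose more without glucose in KO than in EV cells, and both stood lower in KO cells in regular medium. ELOVL1 had an interaction of -0.28 ± 0.05 (adjusted p = 0.018), having fallen more in KO cells, in which it stood higher in regular medium. IDI2-AS1, which shares 14.8% of the IDI1 exon bases on the other strand, had an interaction of 1.26 ± 0.23 (adjusted p = 0.014) at mean levels of 1.25 and 0.684 CPM in deprived KO and EV cells and 1.01 and 1.36 CPM in regular KO and EV cells. The INSIG1 call was lost under 4 of 14 alternatives (adjusted p = 0.068 to 0.12), the IDI1 call under 6 (0.054 to 0.13) and the ELOVL1 call under 5 (0.067 to 0.13), and each was lost when any 1 of the 4 EV libraries was left out. IDI1 itself averaged 25.3 and 23.3 CPM in deprived KO and EV cells and 17.5 and 21.3 CPM in regular KO and EV cells. The median interaction was 0.12 for the regulators, 0.04 for the sterol arm and 0.04 for the fatty acid arm, against -0.0051 for all genes.

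A single library weighed on some uncalled members. LSS rested on deprived KO library b, since without library a its KO difference in deprived medium was 0.58 (adjusted p = 0.0036) and its interaction 0.90 (0.003), while without b the difference was -0.08 (0.68). FASN likewise was called higher in deprived KO cells without library a, at 0.23 (0.048), with an interaction of 0.40 (0.022), against -0.01 (0.92) without library b.

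The neighbouring parts of lipid metabolism were read from lists of other genes. Beside the counts below, 36.5% of all genes tested were called higher and 36.8% lower without glucose in KO cells. In EV cells these shares were 37.5% and 38.7%. For KO against EV cells they were 9.04% and 10.6% in deprived medium and 3.87% and 3.38% in regular medium. The lists are short, and none was tested as a set. Of 16 genes of SREBP processing and sterol-sensing degradation, 4 were called higher and 7 lower without glucose in KO cells, and 5 higher and 7 lower in EV cells. RNF145, a ubiquitin ligase of sterol-induced degradation, fell by 1.07 ± 0.03 in KO and 1.12 ± 0.03 in EV cells on the log2 scale, and MARCHF6, another ligase of that kind, rose by 0.49 ± 0.03 in KO and 0.45 ± 0.03 in EV cells. In KO against EV cells, 3 were called higher and 3 lower in deprived medium and 1 higher and 1 lower in regular medium.

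Of 17 tested genes of cholesterol uptake, storage and efflux (21 listed), 11 were called higher (64.7%) and 3 lower (17.6%) without glucose in KO cells. In EV cells 10 were called higher (58.8%) and 3 lower (17.6%). Those called higher include ABCA1, the cholesterol exporter, at 1.35 ± 0.04 in KO and 1.38 ± 0.04 in EV cells. OSBP, a sterol exchanger, stood at 1.12 ± 0.04 in KO and 1.17 ± 0.04 in EV cells. VLDLR, a lipoprotein receptor, stood at 1.21 ± 0.05 in KO and 1.10 ± 0.05 in EV cells. In KO against EV cells LRP8, another lipoprotein receptor, was higher in deprived (0.30 ± 0.04) and regular medium (0.43 ± 0.04), and LIPA, the lysosomal cholesterol esterase, was lower in deprived (-0.27 ± 0.04) and regular medium (-0.19 ± 0.04). In this list 3 genes were called higher and 2 lower in deprived medium, and 2 higher and 2 lower in regular medium.

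Of 22 tested genes of other fatty acid synthesis and elongation (27 listed), 7 were called higher and 10 lower without glucose in KO cells, and 8 higher and 10 lower in EV cells. ELOVL2, an elongase of polyunsaturated chains, changed by -0.81 ± 0.06 in KO and -1.01 ± 0.06 in EV cells. ME1, the cytosolic malic enzyme that supplies NADPH to fatty acid synthesis, was higher in KO cells in deprived (0.67 ± 0.06) and regular medium (0.77 ± 0.06). Among 7 tested other sterol-pathway genes (8 listed), 2 were called higher and 2 lower in KO cells and 4 higher and 2 lower in EV cells. LBR, which shares the reductase step with TM7SF2, changed by -0.91 ± 0.05 in KO and -0.83 ± 0.05 in EV cells, the direction of TM7SF2. FAXDC2 of the same list went the other way, and so did TMEM41B, which was listed there but is no enzyme of sterol synthesis. FAXDC2 averaged 7.77 and 9.63 CPM in deprived KO and EV cells, against 1.77 and 1.87 CPM in regular KO and EV cells. TMEM41B averaged 57.9 and 59.9 CPM in deprived KO and EV cells, against 14.2 and 17.8 CPM in regular ones.

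Of 13 genes of the isoprenoid, dolichol and ubiquinone branches, which use the products of the mevalonate route, 5 were called higher and 7 lower in KO cells and 4 higher and 6 lower in EV cells. Of 18 tested genes of triglyceride and phospholipid synthesis (20 listed), 4 were called higher and 8 lower in KO cells and 6 higher and 10 lower in EV cells. Of 18 tested genes of fatty acid oxidation (19 listed), 8 were called higher and 6 lower in KO cells and 6 higher and 4 lower in EV cells. CPT1A, the carrier enzyme that admits fatty acids to mitochondria, changed by -0.70 ± 0.04 in KO and -0.64 ± 0.04 in EV cells. PPARGC1A of the same list rose, with 7.05 and 8.54 CPM in deprived KO and EV cells against 2.35 and 2.48 CPM in regular ones. Of 8 genes of AMPK, the kinase that senses low energy and inhibits lipid synthesis (its subunits and the upstream kinases STK11 and CAMKK2), 3 were called higher and 3 lower in KO cells and 2 higher and 3 lower in EV cells. The beta subunit PRKAB2 rose by 1.17 ± 0.05 in KO and 1.25 ± 0.05 in EV cells.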

How the data were processed

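Per the labels' protocols, SMART-Seq mRNA HT and Nextera XT kits were applied to TRIzol-extracted RNA, which leaves strand unmarked. HISAT2, edgeR and GRCh38 were used, per the submitters' processing notes, without versions. The counting tool and annotation are not given in the sources used here. The authors deposited log2 values per gene, read here as log2 CPM. After back-transformation and removal of an offset of 0.023 CPM, 100.00% of genes gave whole reads (tolerance 0.05). Printed CPM values have that offset removed. Reads summed to 70083018 to 107229069 per library.

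The 13057 genes whose mean log2 value reached 0 entered the test (673 did not). A single limma fit (version 3.58.1, R 4.3.3, variance trend on) covered the 4 groups, with 4 residual and 6.29 prior degrees of freedom. From it came 5 contrasts, the KO minus EV difference per medium, the medium difference per cell line and their interaction. Tests were two-sided with Benjamini-Hochberg adjustment across all 13057 genes. Column headers name groups without replicate numbers, and the suffix GlcN was read as glucose-deprived. Exon lengths and overlaps are from GENCODE 29 on GRCh38. The members, arms, lists and the naming rule were chosen with earlier results of these data known. The rule gives library values for the 6 regulators, for the 5 sterol and 4 fatty acid genes of smallest adjusted p in each of the 4 two-group contrasts, and up to 3 called genes of another list. One marker of another cell type is not reported here and is left out of the summed level. Alternatives were no filter or a filter of 2, log2(CPM + 1), median-of-ratios scaling, no variance trend, a robust prior, a fit of the 2 groups compared, and leaving out each library.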

Additional observations from a re-analysis of the deposited data

Results flagged for a closer look

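Genes whose medium response differed between KO and EV cells, by the interaction test of limma, were INSIG1, IDI1 and ELOVL1. INSIG1 had an interaction of 0.37 on the log2 scale (adjusted p = 0.022), since its rise without glucose was 1.26 in KO and 0.89 in EV cells. IDI1 had an interaction of 0.40 (adjusted p = 0.021), with a rise of 0.53 in KO cells and 0.13 in EV cells. ELOVL1 had an interaction of -0.28 (adjusted p = 0.018), with a change of -0.88 in KO and -0.60 in EV cells. In all 3 the regular-medium KO and EV libraries did not overlap. Each of the 3 calls rested on every EV library, and was lost when any 1 of them was left out.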

How the results depend on the processing

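No result changed direction past its threshold under the alternatives tried. The called changes with medium of STARD4, INSIG1, INSIG2, HMGCS1, MSMO1, NSDHL, HSD17B7, ACLY, FASN and ELOVL1 held in KO and EV cells under every alternative. So did those of SREBF2, MVD, FDFT1, FDPS, PMVK, EBP, SCD, SCD5, ELOVL6, FADS1 and ACSS2. Among the members called the same way in both cell types, only TM7SF2 lost its calls under some alternative. Counts of called members that moved by over 1.5 times were these. For KO against EV in deprived medium, the fatty acid arm had 1 called higher and 0 lower with no variance trend, and likewise with a fit of the 2 groups compared. In regular medium, the sterol arm had 2 called lower with a robust prior, and the fatty acid arm 0 higher and 0 lower with no variance trend. For the medium response of EV cells, 1 regulator was called lower with a fit of the 2 groups. For the interaction with no variance trend, 0 sterol genes were called higher and 0 fatty acid genes lower.

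Leaving out each library in turn gave these ranges. For KO against EV in deprived medium, 0 to 1 regulators were called lower, 0 to 1 sterol genes higher and 0 to 3 lower, and 0 to 2 fatty acid genes higher and 0 to 2 lower. In regular medium, 1 to 3 regulators were called lower, 0 to 3 sterol genes lower, and 0 to 1 fatty acid genes higher and 0 to 1 lower. For the interaction, 0 to 2 regulators and 0 to 2 sterol genes were called higher, and 0 to 1 fatty acid genes higher and 0 to 1 lower. The cause of these shifts was not tested. With a filter on mean log2 CPM of 2, TM7SF2 was not tested. A group left with 1 library was assumed to vary like the others. Median-of-ratios scaling moved the median of all genes by under 0.1 on the log2 scale. No paired analysis was possible because the columns of the table carry no replicate numbers. The whole-read counts were not refitted with a count model.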
